A study of Mus musculus with 12 samples.

Results

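The genes described here are the subunits, activators, inhibitor and assembly factors of the proteasome, taken as every gene symbol that starts with Psma, Psmb, Psmc, Psmd, Psme, Psmf or Psmg and a digit. The rule found 42 genes on probe sets with a single symbol, out of 26989 genes measured, and each of the 42 had a single probe set. RefSeq holds 51 symbols that match. Of the others, Psmb5, Psme2 and Psme2b lay only on probe sets shared with another symbol and are described apart, and Psma8, Psmb1, Psmb8, Psmb9, Psmg1 and Psmg2 were not analysed here. Of the interferon-inducible catalytic subunits, Psmb10 was therefore the one that could be set against the constitutive subunits. The symbols Psmc3ip, a partner of the meiotic recombination machinery, and Psme3ip1, a protein that binds the activator Psme3, match the rule but are not subunits, so 40 genes belong to the complex or its assembly.

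RNA from hearts of male C57BL/6J mice was hybridised to Affymetrix arrays of 1 colour, 1 array a heart. The 4 groups held 3 hearts each: ADAM12 knockout after transverse aortic constriction (TAC, a band on the aorta that raises the load on the left ventricle), ADAM12 knockout after sham surgery, wild type after TAC and wild type after sham surgery. All mice were 10 weeks old and were studied 2 weeks after surgery. The labels do not give the knockout allele or the part of the heart used. They call the hearts of a group biological replicates. The groups are written KO TAC, KO sham, WT TAC and WT sham below. The probe set of Adam12, shared with the symbol 5830403F22Rik, read 4.25, 4.40 and 4.36 in KO TAC hearts and 4.56, 4.73 and 4.80 in WT TAC hearts, and 4.33, 4.40 and 4.32 in KO sham hearts against 4.54, 4.46 and 4.61 in WT sham hearts, on the log2 scale. Every knockout heart was below every wild-type heart, but neither difference passed the test (−0.37 ± 0.09 after TAC, adjusted p = 0.163, and −0.19 after sham, adjusted p = 0.868). These readings lie below the 95th percentile of the array's background controls, which limits the check of the knockout. Median array signals lay between 4.93 and 5.10. Of 7 cardiomyocyte markers 6 were measured, and their mean level was 16.79 to 17.15 in every heart.

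The proteasome is the protease that degrades ubiquitin-tagged proteins in the cytosol and nucleus. Its barrel-shaped core particle stacks rings of alpha subunits, which form the gate, around rings of beta subunits, of which Psmb5, Psmb6 and Psmb7 carry the constitutive active sites. Under interferon gamma, and constantly in many immune cells, newly built cores take up Psmb8, Psmb9 and Psmb10 in their place, giving the immunoproteasome, whose peptides feed antigen presentation. The core is capped by the regulatory particle, with a ring of ATPases (Psmc genes) and a set of non-ATPase subunits (most Psmd genes), or by activators that need no ubiquitin (Psme genes). In heart muscle the proteasome turns over sarcomere proteins.

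All values below are log2 signal, and differences are log2 differences with their standard error from limma, fitted to all 12 arrays with 1 mean a group. A gene was called where the p adjusted over all 26989 genes (Benjamini-Hochberg) was under 0.05. Levels are compared between hearts for the same gene only, since different probe sets bind with different strength. In RNA from heart tissue, fewer cells of a type and less RNA per cell cannot be told apart.

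After TAC the proteasome genes did not move together. Psmb10, the inducible catalytic subunit, and Psmd8, a subunit of the regulatory particle's lid, were higher after TAC, and Psme1, the alpha subunit of the interferon-inducible activator PA28, was lower. Averaged over both genotypes, Psmb10 was 1.59-fold higher and Psme1 was at 0.756 of its sham level. Of the constitutive alpha and beta subunits and the ATPases measured, all but Psmb2 were within 0.2 log2 units of sham in the averaged comparison. In KO hearts 2 of the 42 genes were called higher (Psmb10 and Psmd8) and 1 lower (Psme1), 7.14% of the genes against 12.8% of all genes (7.08% higher and 5.68% lower). In WT hearts Psmb10 alone was called, 2.38% of the genes against 0.178% of all genes (0.0667% higher and 0.111% lower). In the comparison averaged over genotypes 2 were called higher (Psmb10 and Psmd8) and 5 lower (Psme1, Psme4, Psmf1, Psmb2 and Psmd5), 16.7% against 13.6% of all genes. Of all genes 7.49% were called higher and 6.12% lower in that comparison. The averaged differences of the 42 ran from −0.40 to 0.67 with a median of −0.01, and 35 of the 42 were under 0.2 in size. Their median size was 0.05, against 0.09 over all genes.

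**Figure D1:**
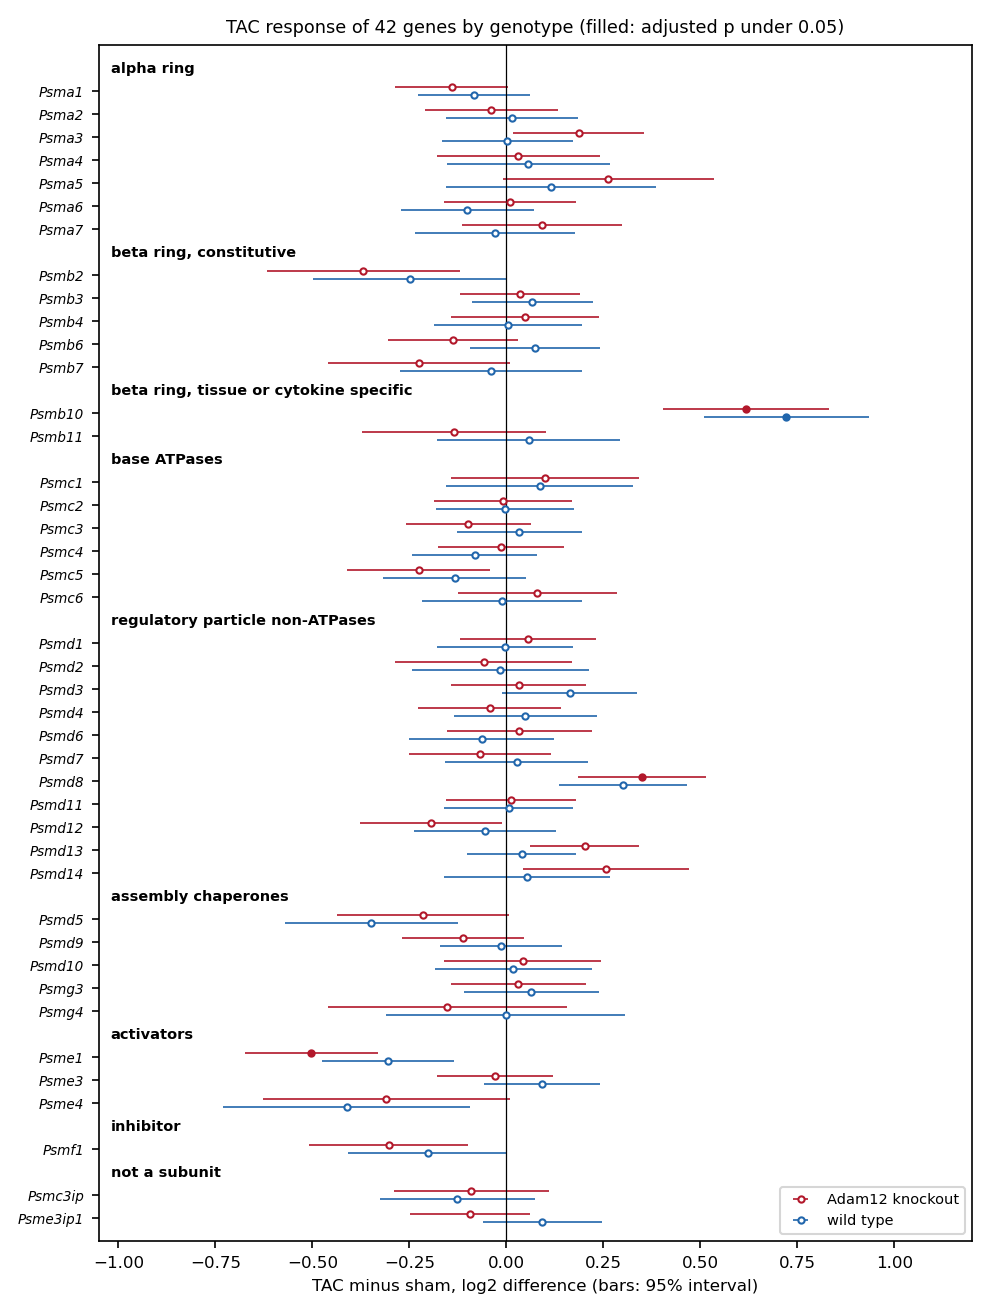
The log2 difference between TAC and sham hearts is plotted on the horizontal axis for each of the 42 genes, grouped by role, in Adam12 knockout hearts (red) and wild-type hearts (blue). Bars are 95% intervals from limma and filled points passed adjusted p under 0.05. Psmb10 lies at 0.62 in knockout and 0.72 in wild-type hearts, and most other genes lie close to 0.

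Psmb10 encodes the inducible subunit with trypsin-like activity that replaces Psmb7. It read 8.35, 8.53 and 8.60 in KO TAC hearts and 7.96, 7.87 and 7.81 in KO sham hearts (8.49 ± 0.13 against 7.88 ± 0.08, SD, n = 3 each). In WT TAC hearts it read 8.61, 8.51 and 8.32, against 7.65, 7.81 and 7.82 in WT sham hearts (8.48 ± 0.15 against 7.76 ± 0.09, SD, n = 3 each). All 6 TAC hearts were above all 6 sham hearts, and the knockout and wild-type TAC hearts overlapped. The difference between TAC and sham was 0.62 ± 0.10 in KO hearts (1.53-fold, adjusted p = 0.00177, limma) and 0.72 ± 0.10 in WT hearts (1.65-fold, adjusted p = 0.0356). Averaged over genotypes it was 0.67 ± 0.07 (adjusted p = 0.000235). These were the largest increases among the 42 genes in each of the 3 comparisons. The KO and averaged calls held under every alternative tried, but the WT call did not. Its adjusted p by limma was 0.210 with only the groups compared in the fit. It was 0.0610, 0.0600 or 0.0536 without KO sham replicate 2, KO sham replicate 3 or KO TAC replicate 3. Without WT sham replicate 1, 2 or 3 it was 0.146, 0.0722 or 0.113, and without WT TAC replicate 1 or 2 it was 0.0630 or 0.118. The WT difference lay between 0.65 and 0.80 in all alternatives. The bases just before the start of Psmb10 are shown because this is the gene the comparison turns on. They are the 250 bases upstream of the RefSeq start (GRCm38.p6, chr8:105938393-105938642, minus strand), 5′ to 3′, in lower case because none of the 4 motifs searched has a match there.
Psmb10: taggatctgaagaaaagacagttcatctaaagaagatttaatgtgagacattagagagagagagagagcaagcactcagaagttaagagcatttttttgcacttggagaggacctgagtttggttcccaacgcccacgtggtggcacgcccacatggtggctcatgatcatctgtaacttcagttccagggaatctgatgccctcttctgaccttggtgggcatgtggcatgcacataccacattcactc

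None of the constitutive counterparts of the inducible subunits was called. Psmb7, the trypsin-like subunit that Psmb10 replaces, read 13.71, 13.80 and 13.93 in KO TAC hearts against 14.03, 13.97 and 14.11 in KO sham hearts, and 13.92, 13.78 and 14.06 in WT TAC hearts against 13.86, 13.84 and 14.17 in WT sham hearts. The KO TAC hearts were all below the KO sham hearts, the WT groups overlapped, and no difference passed the test (−0.23 in KO, adjusted p = 0.227; −0.04 in WT, adjusted p = 0.924; averaged −0.13 ± 0.08, adjusted p = 0.328, limma). Psmb6, the caspase-like subunit that Psmb9 replaces, read 10.15, 10.24 and 10.20 in KO TAC hearts against 10.28, 10.28 and 10.45 in KO sham hearts, and 10.32, 10.23 and 10.29 in WT TAC hearts against 10.32, 10.18 and 10.12 in WT sham hearts. The KO TAC hearts were below the KO sham hearts and the WT groups overlapped (averaged −0.03 ± 0.05, adjusted p = 0.807). Psmb5, the chymotrypsin-like subunit that Psmb8 replaces, lay on a probe set shared with the microRNA gene Mir686, so its signal may hold both. That probe set read 10.71, 10.98 and 10.91 in KO TAC hearts against 10.97, 10.92 and 10.90 in KO sham hearts, and 10.76, 10.69 and 10.75 in WT TAC hearts against 10.72, 10.62 and 10.72 in WT sham hearts (averaged −0.01 ± 0.06, adjusted p = 0.961 over all 58795 probe sets). Its TAC and sham hearts overlapped in both genotypes. Every KO sham heart was above every WT sham heart on this probe set (0.25 ± 0.09, adjusted p = 0.825), a difference that did not pass.

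The difference between Psmb10 and Psmb7 within an array removes anything that scales a whole array. It was −5.36, −5.27 and −5.33 in KO TAC hearts (−5.32 ± 0.05, SD, n = 3) and −6.08, −6.10 and −6.31 in KO sham hearts (−6.16 ± 0.13). In WT TAC hearts it was −5.30, −5.27 and −5.74 (−5.44 ± 0.26), against −6.21, −6.04 and −6.35 in WT sham hearts (−6.20 ± 0.16). Psmb10 thus gained on Psmb7 in every TAC heart relative to every sham heart. The gain averaged over genotypes was 0.80, with p = 0.005 in a 2-sided exact permutation test of the surgery labels within each genotype, the smallest p that its 400 assignments allow. It was 0.84 in KO and 0.76 in WT hearts, each with an exact permutation p of 0.1, the smallest that 3 against 3 hearts allow. The mean over the 12 constitutive core genes measured was 10.25, 10.35 and 10.38 in KO TAC hearts and 10.36, 10.27 and 10.41 in KO sham hearts. It was 10.32, 10.29 and 10.31 in WT TAC hearts and 10.28, 10.33 and 10.36 in WT sham hearts, so the groups overlapped in both genotypes.

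**Figure D2:**
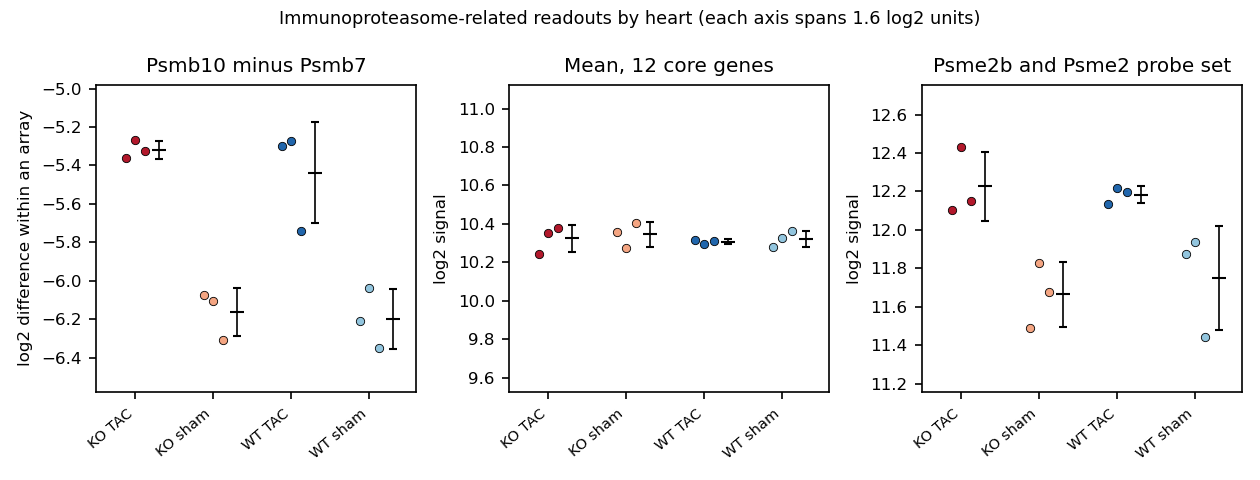
Each point is 1 heart, with the mean and SD of its group (n = 3) beside it, for Psmb10 minus Psmb7 within an array (left), the mean log2 signal of the 12 constitutive core genes (middle) and the log2 signal of the probe set shared by Psme2b and Psme2 (right). All axes span the same width: the TAC hearts lie above the sham hearts on the left and right, and all groups overlap in the middle.

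The alpha ring opens and closes the core and docks the caps. Of its 7 genes 0 were called in KO hearts, WT hearts or the averaged comparison by limma, with 1, 0 and 1 at an unadjusted p under 0.05. Of all genes 24.4% in KO hearts, 12.3% in WT hearts and 24.5% in the averaged comparison had such a p. Their averaged differences ran from −0.11 for Psma1 (± 0.05, adjusted p = 0.158) to 0.19 for Psma5 (± 0.09, adjusted p = 0.21), with Psma3 at 0.09 ± 0.05 (adjusted p = 0.333) and Psma2 at −0.01 ± 0.05 (adjusted p = 0.938). In KO hearts Psma3 and Psma5 lay above sham without overlap, at 0.19 and 0.26, but did not pass (adjusted p = 0.156 and 0.22, limma). Psma1 lay below sham without overlap in KO hearts, at −0.14, and did not pass either (adjusted p = 0.218, limma). Of all genes 15.4% were higher and 16.9% lower without overlap in KO hearts.

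Of the 5 constitutive beta subunits measured on their own, 1 was called lower in the averaged comparison (20%, against 6.12% of all genes). This was Psmb2, a structural subunit of the beta ring. It read 8.74, 8.53 and 8.74 in KO TAC hearts against 9.20, 8.80 and 9.10 in KO sham hearts, and 8.70, 8.70 and 8.65 in WT TAC hearts against 8.96, 9.07 and 8.76 in WT sham hearts. All 6 TAC hearts were below all 6 sham hearts, by as little as 8.74 against 8.76. The averaged difference was −0.31 ± 0.08 (adjusted p = 0.0257, limma), and −0.37 in KO (adjusted p = 0.0566) and −0.25 in WT hearts (adjusted p = 0.408). The averaged call was lost, with adjusted p from 0.0528 to 0.0687, when KO sham replicate 1 or 3, KO TAC replicate 2, WT sham replicate 1 or 2, or WT TAC replicate 2 was left out. Psmb4, another structural subunit of the beta ring, differed by 0.03 ± 0.06 (adjusted p = 0.863). Over the 29 constitutive core, ATPase and non-ATPase genes, the 95% intervals of the averaged differences ran from −0.48 to 0.44 log2 units. Psmb11, the subunit of the thymoproteasome, which is made in the cortex of the thymus, read 2.87 to 3.30 in all 12 hearts. The 23 background control probe sets had array medians of 2.96 to 3.17, so Psmb11 was at background level. The 95th percentile of these controls was 5.20 to 5.93 over the arrays. Psmg3 (4.49 to 4.76) lay below it, Psmd9 (5.19 to 5.43), Psmc3ip (5.29 to 5.75) and Psmg4 (5.44 to 6.04) lay close to it, and all other members were above it in every heart. A second set of 5222 negative control probe sets had array medians of 5.81 to 6.03 and 95th percentiles of 9.36 to 9.72. Psmb10 (7.65 to 8.61), Psmb2 and Psmf1 were among the members that lay above these medians but below these percentiles.

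The regulatory particle unfolds tagged proteins and feeds them into the core. Of its 17 genes measured Psmd8 was called higher and none lower in KO hearts and in the averaged comparison. This was 5.88% in each, against 12.8% and 13.6% of all genes. In WT hearts 0 were called, against 0.178% of all genes. At an unadjusted p under 0.05 by limma there were 5 in KO hearts, 1 in WT hearts and 4 averaged. Of all genes 24.4%, 12.3% and 24.5% had such a p. Psmd8 read 10.28, 10.45 and 10.50 in KO TAC hearts against 10.10, 10.03 and 10.05 in KO sham hearts (10.41 ± 0.12 against 10.06 ± 0.04, SD, n = 3 each). It read 10.22, 10.32 and 10.19 in WT TAC hearts against 9.92, 9.92 and 9.99 in WT sham hearts (10.24 ± 0.07 against 9.94 ± 0.04, SD, n = 3 each). The groups did not overlap in either genotype. The difference was 0.35 ± 0.08 in KO (adjusted p = 0.0099, limma), 0.30 ± 0.08 in WT (adjusted p = 0.133) and 0.33 ± 0.05 averaged (adjusted p = 0.00208). Among the other lid and non-ATPase subunits, Psmd14, the deubiquitinase that removes ubiquitin chains as a substrate enters, differed by 0.15 ± 0.07 (adjusted p = 0.195) and Psmd13 by 0.12 ± 0.05 (adjusted p = 0.112). Psmd4, a receptor for ubiquitin chains, differed by 0.00 ± 0.06 (adjusted p = 0.986). Of the 6 ATPases 0 were called in the averaged comparison by limma, with 1 at an unadjusted p under 0.05. Psmc5 had the smallest p (−0.18 ± 0.06, adjusted p = 0.0717), and was called lower in 4 of 20 alternatives: with the replicate block (adjusted p = 0.0395), with arrays centred on their median (0.0486), without dim genes (0.0371) and without KO sham replicate 2 (0.0492). Next came Psmc1 (0.09 ± 0.08, adjusted p = 0.546) and Psmc4 (−0.05 ± 0.05, adjusted p = 0.668), and Psmc2 lay at −0.01 ± 0.06 (adjusted p = 0.968).

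The activators did not share a direction. Psme1 and Psme2 are the subunits of PA28, the cap that interferon gamma induces together with the immunoproteasome. Psme1 read 9.63, 9.68 and 9.83 in KO TAC hearts against 10.13, 10.23 and 10.28 in KO sham hearts (9.71 ± 0.11 against 10.21 ± 0.08, SD, n = 3 each). In WT TAC hearts it read 9.90, 9.80 and 9.98, against 10.23, 10.18 and 10.19 in WT sham hearts (9.89 ± 0.09 against 10.20 ± 0.02, SD, n = 3 each). All 6 TAC hearts were below all 6 sham hearts. The difference was −0.50 ± 0.08 in KO (adjusted p = 0.00166, limma), −0.31 ± 0.08 in WT (adjusted p = 0.136) and −0.40 ± 0.05 averaged (adjusted p = 0.000766). It was the largest decrease among the 42 genes in KO hearts and in the averaged comparison, in the direction opposite to Psmb10. The 30 bases from the RefSeq start of Psme1 (GRCm38.p6, chr14:55578494-55578523, plus strand) are shown, 5′ to 3′, because they hold a match to the core of an interferon-stimulated response element, read on the opposite strand and marked in capitals.
Psme1: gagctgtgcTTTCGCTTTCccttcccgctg

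Psme2 has near-identical copies, and its signal came only from probe sets shared with Psme2b, so the gene behind it is uncertain. The probe set shared by Psme2b, Psme2 and Psme2b-ps read 12.10, 12.43 and 12.15 in KO TAC hearts against 11.49, 11.83 and 11.68 in KO sham hearts. It read 12.13, 12.22 and 12.20 in WT TAC hearts against 11.88, 11.93 and 11.44 in WT sham hearts. All 6 TAC hearts were above all 6 sham hearts, in contrast to Psme1. The difference was 0.56 ± 0.14 in KO (adjusted p = 0.0365, over all 58795 probe sets), 0.43 ± 0.14 in WT (adjusted p = 0.302) and 0.50 ± 0.10 averaged (adjusted p = 0.0107, limma). The averaged call held with each heart left out in turn. The KO call did not: its adjusted p was 0.131 or 0.104 without KO sham replicate 1 or 3, 0.0543, 0.157 or 0.0675 without KO TAC replicate 1, 2 or 3, and 0.0504 without WT TAC replicate 2. A second probe set, shared by Psme2 and Psme2b, read 7.69, 7.77 and 7.71 in KO TAC hearts against 7.46, 7.58 and 7.54 in KO sham hearts, and 7.63, 7.62 and 7.49 in WT TAC hearts against 7.40, 7.45 and 7.43 in WT sham hearts. It did not pass (averaged 0.18 ± 0.06, adjusted p = 0.0827), although no TAC heart overlapped a sham heart of its genotype.

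Psme3, the nuclear activator PA28 gamma, was not called. It read 12.25, 12.23 and 12.23 in KO TAC hearts against 12.38, 12.17 and 12.25 in KO sham hearts, and 12.34, 12.28 and 12.32 in WT TAC hearts against 12.22, 12.25 and 12.18 in WT sham hearts (averaged 0.03 ± 0.05, adjusted p = 0.78, limma). The groups overlapped in KO hearts, and the WT TAC hearts were above the WT sham hearts. Psme4, the large activator PA200, read 13.64, 13.55 and 13.82 in KO TAC hearts against 14.20, 13.87 and 13.86 in KO sham hearts, and 14.02, 13.63 and 13.79 in WT TAC hearts against 14.16, 14.49 and 14.01 in WT sham hearts. Its averaged difference of −0.36 ± 0.10 passed (adjusted p = 0.0382), although the WT groups overlapped and neither genotype passed alone (adjusted p = 0.22 in KO and 0.273 in WT). Psmf1, the inhibitor PI31, read 6.93, 6.69 and 6.90 in KO TAC hearts against 7.23, 7.02 and 7.17 in KO sham hearts, and 6.99, 6.92 and 6.76 in WT TAC hearts against 7.11, 7.15 and 7.01 in WT sham hearts. All 6 TAC hearts were below all 6 sham hearts, by 6.99 against 7.01 at the closest. The averaged difference was −0.25 ± 0.07 (adjusted p = 0.0252), with −0.30 ± 0.09 in KO (adjusted p = 0.0551, and 0.0451 with the replicate number as a block) and −0.20 in WT (adjusted p = 0.408). The averaged call of Psmf1 was lost without KO sham replicate 1 or 3, KO TAC replicate 2, or WT sham replicate 1 or 2 (adjusted p 0.0572 to 0.0638). That of Psme4 was lost without KO sham replicate 1 or 3, KO TAC replicate 1 or 2, WT sham replicate 1 or 2, or WT TAC replicate 2 or 3 (adjusted p 0.0515 to 0.0966). Both averaged calls were also lost in limma over all probe sets (adjusted p = 0.0557 for Psmf1 and 0.0654 for Psme4).

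Of the 5 assembly chaperones, Psmd5, a chaperone of the ATPase ring, was called lower in the averaged comparison (20%, against 6.12% of all genes). It read 9.38, 9.44 and 9.35 in KO TAC hearts against 9.73, 9.50 and 9.58 in KO sham hearts, and 9.15, 9.48 and 9.17 in WT TAC hearts against 9.74, 9.53 and 9.57 in WT sham hearts. All 6 TAC hearts were below all 6 sham hearts (averaged −0.28 ± 0.07, adjusted p = 0.0228, limma; KO −0.21, adjusted p = 0.224; WT −0.35, adjusted p = 0.183). The call was lost without KO sham replicate 1, KO TAC replicate 3 or WT sham replicate 1 (adjusted p 0.0520 to 0.0581). Psmd9 (−0.06 ± 0.05, adjusted p = 0.525), Psmd10 (0.03 ± 0.07, adjusted p = 0.853), which also act on the ATPase ring, and Psmg3 (0.05 ± 0.06, adjusted p = 0.701), which acts on the alpha ring, were not called. The genes outside the complex, Psmc3ip (−0.11 ± 0.06, adjusted p = 0.353) and Psme3ip1 (0.00 ± 0.05, adjusted p = 0.999), were not called either.

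**Figure D3:**
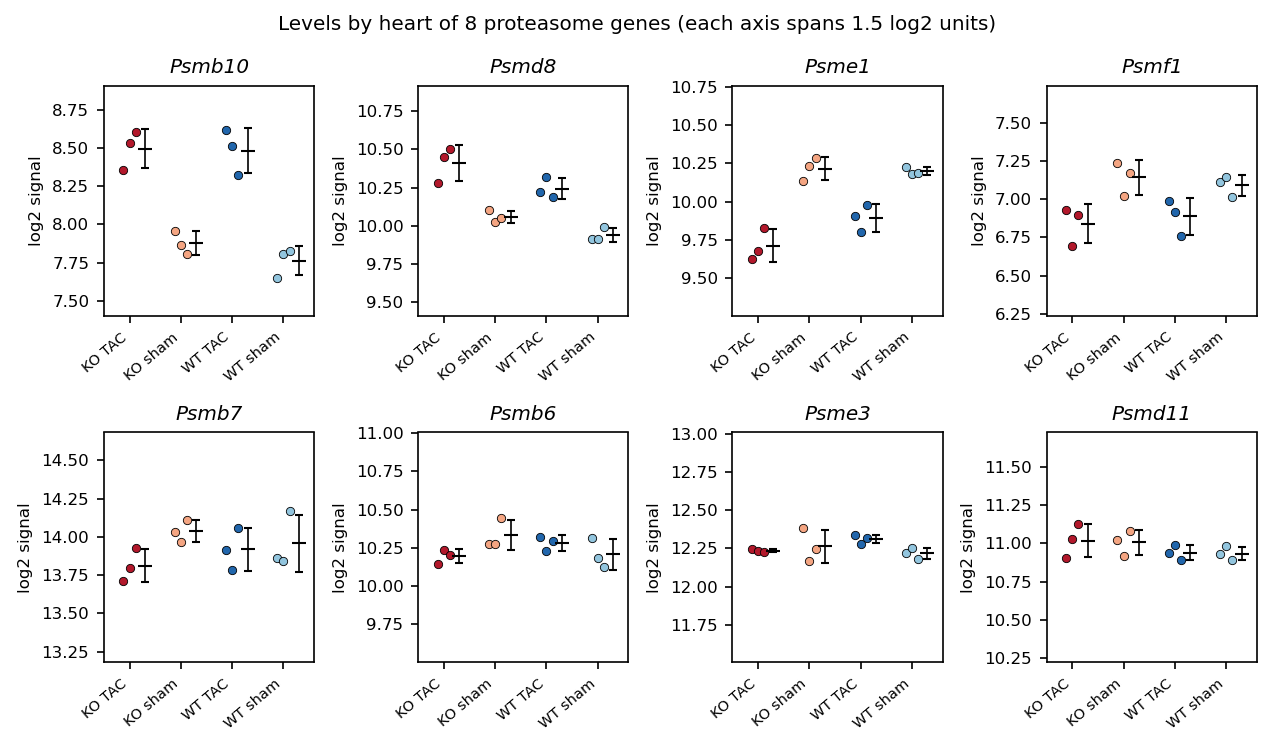
Log2 signal of 8 proteasome genes in each heart, with group mean and SD (n = 3), each vertical axis spanning 1.5 log2 units. Psmb10 and Psmd8 lie higher in TAC than in sham hearts of both genotypes, Psme1 and Psmf1 lie lower, and Psme3 and Psmd11 overlap across surgery in knockout hearts.

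The groups were also compared by whether any heart overlapped. In KO hearts 16 of the 42 genes separated TAC from sham (38.1%, against 32.3% of all genes), 6 higher and 10 lower (15.4% and 16.9% of all genes). In WT hearts 9 did (21.4%, against 16.1% of all genes), 4 higher and 5 lower (9.03% and 7.07% of all genes). Between all 6 TAC and all 6 sham hearts 6 genes did not overlap (14.3%, against 5.84% of all genes): Psmb10 and Psmd8 higher, and Psme1, Psmf1, Psmb2 and Psmd5 lower. Of all genes 3.05% were higher and 2.8% lower without overlap.

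Genotype made no difference that passed. In KO TAC hearts against WT TAC hearts 0 of the 42 genes were called by limma, against 0.0111% of all genes. At an unadjusted p under 0.05 there were 3, against 14.6% of all genes: Psma1 (−0.15, adjusted p = 0.334), Psmd8 (0.17 ± 0.08, adjusted p = 0.332) and Psme1 (−0.18 ± 0.08, adjusted p = 0.309). Between these groups 5 genes did not overlap (11.9%, against 19.2% of all genes). Psmb10 differed by 0.01 ± 0.10 between KO TAC and WT TAC hearts, with a 95% interval of −0.20 to 0.23 (adjusted p = 0.967). In KO sham hearts against WT sham hearts 0 of the 42 were called by limma, as of all genes (0%), and 0 had an unadjusted p under 0.05, against 5.54% of all genes. The groups did not overlap for 4 genes (9.52%, against 12.3% of all genes). The interaction, which asks whether the TAC response differed between genotypes, called 0 of the 42 by limma (0% of all genes), again with 0 at an unadjusted p under 0.05, against 11% of all genes. For Psmb10 the TAC response was −0.10 ± 0.14 in KO relative to WT (95% interval −0.40 to 0.20), and for Psme1 −0.20 ± 0.11 (−0.44 to 0.04, adjusted p = 0.54). With 3 hearts a group these intervals allow differences of that size, so they do not show that the genotypes respond alike.

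Other genes of the pathway were read from lists. Of all genes 7.08% were called higher and 5.68% lower in KO hearts, and 0.0667% and 0.111% in WT hearts. In the averaged comparison 7.49% of all genes were called higher and 6.12% lower. Of 10 proteasome genes named outside the symbol rule 4 were measured and 0 were called in KO hearts, WT hearts or the averaged comparison by limma, with 0 at an unadjusted p under 0.05. They were Pomp, the chaperone needed to mature the core (averaged 0.08), Uchl5, a deubiquitinase of the regulatory particle (−0.15), Akirin2, which brings proteasomes into the nucleus (−0.12), and the ubiquitin ligase Ube3c (−0.03). Of 9 of 10 genes measured that transcribe proteasome genes or act with those factors, 2 were called higher in the averaged comparison. Mafk, a small partner of the CNC transcription factors, differed by 0.34 (adjusted p = 0.0114), and Nfe2l2, which drives antioxidant genes, by 0.19 (adjusted p = 0.0477), a call kept in 1 of the 12 fits that each left out a heart (adjusted p 0.0294 to 0.106). Nfe2l1, the factor that induces proteasome subunits when proteasome activity falls, did not pass (0.06, adjusted p = 0.583). Of 12 ubiquitin and shuttle genes 6 were measured and 0 called by limma, with 0 at an unadjusted p under 0.05 (median −0.09 averaged). Of 12 genes that process antigen with the immunoproteasome 6 were measured. In KO hearts 2 were called higher and 1 lower, in WT hearts 0 by limma, with 1 at an unadjusted p under 0.05, and in the averaged comparison 1 higher and 1 lower. B2m, the light chain of class I molecules, was higher (averaged 0.47, adjusted p = 0.0175; KO 0.59, adjusted p = 0.0315) and Canx, a chaperone of the endoplasmic reticulum, lower (averaged −0.25, adjusted p = 0.00483; KO −0.24, adjusted p = 0.0382). Pdia3, a disulfide isomerase of the peptide-loading complex, was higher in KO hearts (0.61, adjusted p = 0.00843), and was at −0.11 in WT hearts (adjusted p = 0.78) and 0.25 averaged (adjusted p = 0.098). Its interaction did not pass (0.72 ± 0.18, adjusted p = 0.259). With each heart left out in turn the KO call was kept in all 12 fits for Pdia3, in 7 for B2m and in 3 for Canx.

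Interferon-response genes and leukocyte markers were read beside Psmb10, and their part in its rise was not tested. For the counts that follow, 7.08% of all genes were called higher in KO hearts, 0.0667% in WT hearts and 7.49% in the averaged comparison. Of 21 interferon-response genes 14 were measured. In KO hearts 5 were called higher and 0 lower (median 0.31, against −0.03 over all genes). In WT hearts 0 of the 14 were called by limma, with 0 at an unadjusted p under 0.05, against 0.178% and 12.3% of all genes. The WT difference was above 0 for 13 of the 14 (median 0.17, against 0.02 over all genes). In the averaged comparison 5 were called higher and 0 lower (median 0.23), and none of the 14 passed the interaction. The 5 called in KO hearts and in the averaged comparison were the interferon regulatory factors Irf7 (0.64), Irf8 (0.26) and Irf9 (0.28), the antiviral enzyme Oas1a (0.78) and the signal transducer Stat2 (0.37). Their averaged differences are in parentheses, and Irf8 read 5.20 to 5.76, close to the background controls. In KO hearts the count was 3 without KO TAC replicate 2 or KO sham replicate 1. The averaged count was 3 to 7 with 1 heart left out, and 3 without KO TAC replicate 2, KO sham replicate 1, WT TAC replicate 2 or WT sham replicate 3. The probe set of Ifng, the gene for interferon gamma itself, read 3.32 to 3.67 in all hearts, within the range of the background controls, so it gives no measure of a change. Of 10 macrophage and monocyte markers 7 were measured and 7 were called higher in KO hearts (median 1.10) and in the averaged comparison (median 0.83), and 0 in WT hearts, with 4 at an unadjusted p under 0.05 (median 0.61). Their log2 summed level was 14.19 to 15.12 in KO TAC hearts against 13.28 to 13.59 in KO sham hearts, and 13.91 to 14.13 in WT TAC hearts against 13.27 to 13.61 in WT sham hearts. This sum is mostly Lyz2, the brightest marker (13.85 to 14.82 in KO TAC hearts). The mean log2 level of the 7 was 8.995 to 9.81 in KO TAC hearts against 7.93 to 8.30 in KO sham hearts. In WT TAC hearts it was 8.64 to 8.90, against 8.04 to 8.34 in WT sham hearts. Of 3 markers of all leukocytes 2 were called higher in KO hearts, 0 in WT hearts and 3 in the averaged comparison. All 3 had an unadjusted p under 0.05 by limma in each, against 24.4%, 12.3% and 24.5% of all genes. Their log2 summed level was 9.004 to 9.64 in KO TAC hearts against 8.17 to 8.27 in KO sham hearts. It was 8.64 to 8.88 in WT TAC hearts against 8.07 to 8.36 in WT sham hearts. Ptprc, the leukocyte surface phosphatase CD45, read 8.52, 8.72 and 7.96 in KO TAC hearts against 6.93, 7.07 and 6.85 in KO sham hearts, and 7.82, 7.80 and 7.48 in WT TAC hearts against 7.16, 7.31 and 6.85 in WT sham hearts. Its difference was 1.45 in KO and 0.60 in WT hearts. The other markers of all leukocytes, Laptm5 and Coro1a, differed by 1.12 and 0.28 in KO hearts and by 0.55 and 0.26 in WT hearts. Coro1a read 5.73 to 6.32, close to the background controls. The difference of Psmb10 was 0.62 in KO and 0.72 in WT hearts. None of these genes passed the interaction (Ptprc 0.85 ± 0.26, adjusted p = 0.278, limma).

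**Figure D4:**
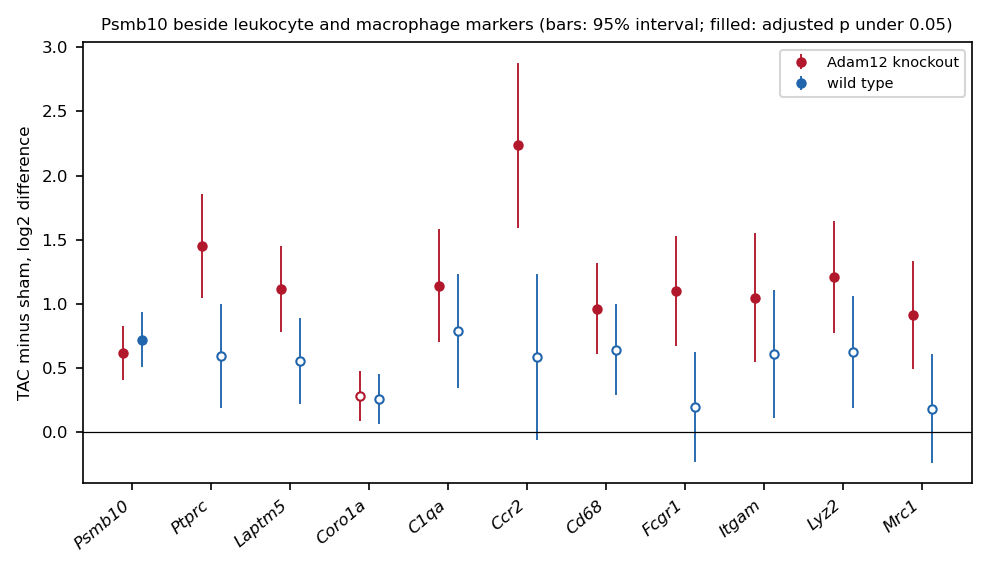
Log2 difference between TAC and sham hearts (vertical axis, with 95% intervals from limma) for Psmb10 and 10 leukocyte and macrophage markers, in Adam12 knockout hearts (red) and wild-type hearts (blue), filled where adjusted p was under 0.05. Psmb10 lies at 0.62 in knockout and 0.72 in wild-type hearts. Ptprc lies at 1.45 and 0.60, Laptm5 at 1.12 and 0.55, and Coro1a at 0.28 and 0.26.

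Markers of other cell types were read as well, beside 7.49% of all genes called higher and 6.12% called lower in the averaged comparison. In KO hearts 7.08% of all genes were called higher and 5.68% lower, and in WT hearts 0.0667% and 0.111%. An unadjusted p under 0.05 by limma was found for 24.4% of all genes in KO hearts, 12.3% in WT hearts and 24.5% averaged. Of 5 T cell markers measured 0 were called in the KO, WT and averaged comparisons by limma, with 1 at an unadjusted p under 0.05 in each and mean levels of 4.43 to 4.71 over all hearts. Of 2 B cell and 3 NK cell markers 0 were called, with 0 at an unadjusted p under 0.05. Without KO TAC replicate 3, Cd3e was called in KO hearts. Of 3 neutrophil markers Csf3r was called higher in KO hearts and in the averaged comparison, where the count was 0 without KO sham replicate 3. Of 5 fibroblast markers measured 4 were called higher in the averaged comparison (Col1a1, Col3a1, Postn and Tcf21, median over the list 2.36), and of 4 endothelial markers 2 (Cdh5 and Pecam1). Of 6 cardiomyocyte markers 2 were called lower in the averaged comparison, Ryr2 (−0.42) and Tnni3 (−0.34). In KO hearts 3 of the 6 were called lower (median −0.26). In WT hearts 0 were called by limma, with 1 at an unadjusted p under 0.05 (median −0.04). The 3 atrial markers varied widely within groups, with mean levels from 14.10 to 16.18 in KO TAC hearts against 14.26 to 17.23 in KO sham hearts, and from 13.54 to 14.85 in WT TAC hearts against 13.39 to 16.08 in WT sham hearts. The part of these markers in the proteasome results was not tested.

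Promoter sequence was read for the 37 of the 42 genes with a RefSeq window, which runs from 250 bases before to 50 bases after the start. Psmb2, Psmb7, Psmc3, Psmd3 and Psmd7 had none. The 37 genes had 40 windows, and each motif below was found in as many of these windows as genes. Both strands were searched for 4 motifs, and no match of any motif overlapped one of another. The interferon-stimulated response element core, GAAA, any 2 bases and GAAA, was found in 5 of the 37 genes (Psmb3, Psmd4, Psmd9, Psme1 and Psmg4), against 3.44% of all 32851 windows. Of these 5 genes Psme1 was called, and lower, after TAC. The gamma-activated site TTCNNNGAA was found in 1 gene (Psmd2), against 8.3% of all windows. The antioxidant response element core TGACNNNGC, a form of which binds the CNC factors, was found in 5 (Psmb6, Psmc6, Psmd12, Psmd9 and Psme4), against 12.4% of windows. The box CCAAT was found in 15, against 37.4% of windows. The 250 bases upstream of Psmb6 (GRCm38.p6, chr11:70525107-70525356, plus strand) are shown, 5′ to 3′, as those of a constitutive subunit beside Psmb10, with the antioxidant response element match in capitals.
Psmb6: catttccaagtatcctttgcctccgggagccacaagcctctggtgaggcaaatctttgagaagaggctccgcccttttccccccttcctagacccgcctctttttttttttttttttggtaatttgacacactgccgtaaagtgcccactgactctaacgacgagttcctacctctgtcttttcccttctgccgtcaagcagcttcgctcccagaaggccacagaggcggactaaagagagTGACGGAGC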

How the data were processed

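Arrays of 12 mouse hearts were analysed from the authors' deposited table of log2 values. Per the submitters' processing notes it was made with Affymetrix Expression Console from 250 ng of RNA a sample. Its version, normalization, summarization and genome build are not given in the sources used here, and the log2 scale was read from the values. Of 65527 probe sets 6732 controls were left out. The platform annotation gave 27268 of the other 58795 a single symbol, 1932 several and 29595 none. The brightest probe set of a gene was used (198 genes had more than 1), which left 26989 genes. The annotation can be old, and no scan date or batch is given.

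Differences were fitted with limma 3.58.1 in R 4.3.3 (1 mean a group, 12 arrays, default empirical Bayes, 2-sided, residual df 8) with Benjamini-Hochberg adjustment over all genes, or over all 58795 probe sets for those with several symbols. The method was tested on simulated data. Within-array differences were tested by exact permutation (Python 3.11.15). The number of arrays limits the precision, and probe sets near background understate differences. Named genes were the immunoproteasome subunits with their counterparts, Psme1 to Psme4, Psmf1 and Psmb11, and in each class the 3 smallest p and the largest p in the averaged TAC comparison. Of marker and pathway lists up to 4 genes each and any marker quoted were named. Psmd11, Irf9 and Cd3e were named after their values were seen. Members, lists and tests were chosen with earlier results of these data known. Alternatives changed the normalization, centring, dim-gene filter (mean over 5), probe set per gene, features tested, variance model, array weights, groups fitted, replicate block and each array in turn. Promoter sequences are from RefSeq (GRCm38.p6).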

Additional observations from a re-analysis of the deposited data

How the results depend on the processing

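The KO calls of Psmb10, Psmd8 and Psme1 held in all 21 alternatives and their averaged calls in the 20 that give an averaged value. The averaged calls of Psmb2, Psmd5, Psme4 and Psmf1 held in 14, 17, 11 and 14 of the 20. In KO hearts 3 proteasome genes were called, but 5 under quantile normalization, 6 without dim genes, 6 with trended and robust variance and 6 with array weights, and 3 to 5 with 1 heart left out. In WT hearts 1 was called, but 0 with only the groups compared in the fit and 0 to 1 with 1 heart left out. The averaged count of 7 was 5 with all probe sets tested, and 3 to 8 with 1 heart left out, lowest without KO sham replicate 1 or WT sham replicate 1. The counts between genotypes and of the interaction were 0 in all of these. The gain of Psmb10 on Psmb7 was 0.76 to 0.88 with 1 heart left out (exact permutation p 0.005 to 0.01) and 0.809 under quantile normalization.

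Some differences near 0 changed sign, none of them called. Between KO TAC and WT TAC hearts these were Psmb10 under quantile normalization (−0.015) and Psmb2 under centring (0.018). Averaged, they were Psma2 (0.0054) and Psmc2 (0.013) with array weights, Psmb4 under quantile normalization (−0.015) and centring (−0.0019), Psmd4 under both (−0.026 and −0.026), and the Psmb5 probe set under quantile normalization (0.0052). With 1 heart left out, differences between KO TAC and WT TAC hearts ran from −0.068 to 0.085 for Psmb10, −0.11 to 0.024 for Psmf1, −0.15 to 0.025 for Psmb11 and −0.050 to 0.054 for Psmb2. TAC differences in WT hearts ran from −0.11 to 0.068 for Psmb7 and −0.030 to 0.15 for Psmb11. In KO hearts they ran from −0.078 to 0.029 for Psme3 and −0.12 to 0.012 for the Psmb5 probe set. Averaged differences ran from −0.083 to 0.0070 for Psmb11, −0.035 to 0.014 for Psma2, −0.0012 to 0.056 for Psmb4, −0.030 to 0.028 for Psmc2, −0.033 to 0.032 for Psmd4 and −0.039 to 0.029 for the Psmb5 probe set. The cause was not tested.

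Whether the replicate numbers of the labels pair the hearts is not settled. The 18 correlations of same-numbered hearts' deviations ran from −0.07 to 0.31, with 10 over 0.1. All 3 were over 0.1 between KO TAC and KO sham hearts (0.254, 0.143 and 0.173), but not between any other pair of groups. A heart's own number was the closest in 26 of 36 comparisons with another group, a hint of pairing from the data and not from the design. With the replicate block 4 proteasome genes were called in KO hearts, 1 in WT hearts, 8 averaged and 0 between genotypes or in the interaction: Psmf1 was gained in KO hearts and Psmc5 averaged, and no call was lost. The count over all genes between KO TAC and WT TAC hearts was 575 in place of 3.

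The planned tests of Psmb8 minus Psmb5 and Psmb9 minus Psmb6 were not run, because Psmb8 and Psmb9 were not analysed here. A fit of only the groups compared gives no averaged or interaction value, and without dim genes 40 members were tested and Psmb11 has no value. Signal near background limits Psmb11, Psmg3, Psmd9, Psmc3ip, Psmg4, Ifng, Irf8, Csf3r, the Adam12 probe set and the lymphocyte markers. Psmb10, Psmb2 and Psmf1 also lay below the 95th percentile of the larger set of negative controls.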
